A study of Mus musculus with 8 samples.

Results

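The 10 genes described here, P2rx4, P2rx7, P2ry1, P2ry2, P2ry6, P2ry14, Entpd1, Adora1, Adora3 and Nt5e, encode receptors for extracellular purines and the ectoenzymes that break these purines down. They were chosen by name, with earlier results of these data known. All 10 were found among the 54532 genes listed for the stroke comparison and the 28229 genes listed for the drug comparison. Bulk RNA sequencing was performed on 8 brain libraries in 4 groups of 2, from male C57BL/6 mice sampled on Day 21. PTS + RS mice received a photothrombotic stroke, a cortical lesion made by light and the dye Rose Bengal, together with daily restraint stress, and RS mice received the restraint alone, so restraint was shared by both groups. All 4 of these libraries were labelled cortex. In the drug comparison every mouse had PTS + RS and was given either RGFP109, an inhibitor of HDAC1 and HDAC3, at 60 mg/kg under the skin once a day for 2 weeks, or vehicle, which the labels call NaCl. A figure caption of the study gives 21 days of dosing instead of 2 weeks. Replicate 1 of each drug group was labelled cortex and replicate 2 amygdala, so each region had 1 library per group. The labels do not say whether a library was 1 mouse or a pool, and p-values therefore measure only the spread between these libraries.

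Extracellular ATP is released by damaged and active cells and is sensed by P2X receptors, which are ion channels, and by P2Y receptors, which couple to G proteins and also respond to ADP, UTP, UDP or UDP-sugars. CD39, the product of Entpd1, removes phosphates from ATP and ADP to give AMP, and CD73, the product of Nt5e, turns AMP into adenosine, which acts on adenosine receptors. In brain, microglia carry several P2 receptors through which they sense injured cells, whereas the A1 receptor, encoded by Adora1, is abundant in neurons and dampens transmitter release.

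The 4 groups held between 15902013 and 21712033 counted reads per library. Summed levels in CPM, read counts scaled to the size of the library, of 15 microglial markers were 1813 and 1564 in PTS + RS and 416 and 372 in RS. The same sum was 479 and 713 in RGFP109 and 569 and 805 in vehicle. Vehicle replicate 1, labelled cortex, stood apart, with a summed olfactory bulb marker level of 1293 CPM against 11.5 to 17.1 CPM in the other 7 libraries. Both libraries labelled amygdala held more striatal marker RNA, at 1373 and 1514 CPM, than the other 6, at 175 to 257 CPM. The amygdala marker sum was 91.9 and 108 CPM in them and 102 to 184 CPM in the rest, so these markers did not set them apart. A cerebral cortex marker sum was also higher in the libraries labelled amygdala, at 1251 and 1062 CPM, than in the rest, at 500 to 675 CPM. The choroid plexus sum ranged from 14.4 to 3805 CPM and differed within groups, at 1614 and 45.5 CPM in PTS + RS, 1824 and 3805 CPM in RS, 1513 and 14.4 CPM in RGFP109 and 46.0 and 17.3 CPM in vehicle. In bulk tissue, fewer cells of a type and less RNA per cell cannot be told apart.

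**Figure D1:**
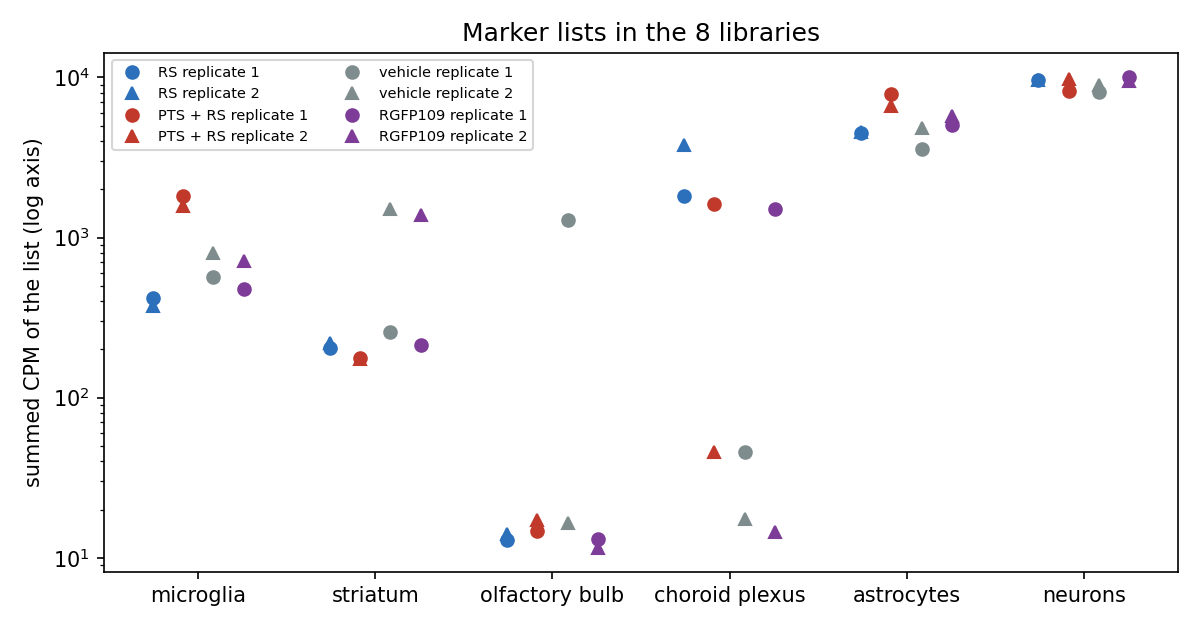
Summed CPM of 6 marker lists on a log axis, 1 point per library, coloured by group, with circles for replicate 1 and triangles for replicate 2. Microglial markers lie at 1564 CPM or more only in the 2 PTS + RS libraries, and the olfactory bulb list reaches 1293 CPM in vehicle replicate 1.

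Between PTS + RS and RS cortex, P2ry6 and Adora3 rose, each by more than 4-fold, and no other member passed both limits, an adjusted p below 0.05 and a 2-fold change or larger (log2 of 1). These 2 of 10 members are to be read beside the 2.12% of the 17581 tested genes that were called higher, while 0 members and 0.091% of all genes were called lower. Fitted log2 fold changes were above 0 for 9 of the 10 members, compared with 49.7% of all tested genes, and their median was 0.63, compared with -0.0015 over all tested genes. Both PTS + RS libraries lay above both RS libraries for 8 members, an arrangement found in 25.7% of all tested genes. They lay below for 1 member, Adora1, and 24.5% of all tested genes did so. Nt5e was the member whose libraries overlapped. An unadjusted p below 0.05 was reached by 5 members, all higher (P2rx4, P2rx7, P2ry6, Entpd1 and Adora3), beside 10.3% of all tested genes higher and 7.55% lower.

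P2ry6, which encodes a receptor for UDP linked to microglial phagocytosis, measured 14.8 and 13.3 CPM in PTS + RS and 3.04 and 3.09 CPM in RS. These values rest on 254, 223, 55 and 49 reads. The 2 groups were far apart relative to the spread within either, with means of 14.1 ± 1.05 and 3.06 ± 0.040 CPM (SD, n = 2 each). The log2 fold change was 2.20 with a standard error of 0.182, that is 4.59-fold, with a 95% interval of the log2 value from 1.77 to 2.63 and an adjusted p of 0.00152 in edgeR's quasi-likelihood test. Over 12 alternative settings the log2 value stayed between 1.51, on the log2(FPKM + 1) scale, and 2.27, and the call was lost in 1 of them, a fit of all 8 libraries together, where the adjusted p was 0.0907 and 0 genes in all were called.

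Adora3, which encodes the A3 adenosine receptor, was the least abundant member in RS cortex. It had 31 and 35 reads in PTS + RS, or 1.81 and 2.09 CPM, and 7 reads in each RS library, or 0.386 and 0.442 CPM. The groups did not overlap, and the log2 fold change was 2.22 ± 0.418 (SE), 4.66-fold, with a 95% interval from 1.24 to 3.21 and an adjusted p of 0.0378 in edgeR. That call rested on few reads and was lost in 7 of 12 alternatives, among them DESeq2 at an adjusted p of 0.0961 and limma-voom at 0.0544, with a range over all alternatives from 3.12e-04 to 0.210. Without RS replicate 1 the adjusted p was 0.195, and without RS replicate 2 it was 0.157, with log2 values of 2.12 and 2.31. The lowest log2 value, 0.45, was that on the log2(FPKM + 1) scale, which compresses changes of low genes. In the annotation 20.9% of the exonic bases of Adora3 also belong to Tmigd3 on the same strand, which had 0 to 4 reads in each library.

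The P2X channels P2rx4 and P2rx7 are both activated by ATP, and the P2X7 channel needs high ATP levels and is known for driving interleukin-1 release. P2rx7 measured 21.5 and 19.0 CPM in PTS + RS and 12.7 and 13.8 CPM in RS. P2rx4 measured 20.7 and 15.9 CPM in PTS + RS and 12.03 and 12.12 CPM in RS. Libraries of the 2 groups were separate for both channels, with RS the lower. Their log2 fold changes were similar, at 0.61 ± 0.138 and 0.60 ± 0.167 (SE), and neither passed, at edgeR adjusted p-values of 0.0652 for P2rx7 and 0.118 for P2rx4.

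Among the remaining P2Y receptors, P2ry1, a receptor for ADP, measured 2.86 and 3.53 CPM in PTS + RS and 2.21 and 1.83 CPM in RS. P2ry2, a receptor for ATP and UTP, measured 1.34 and 1.08 CPM in PTS + RS and 0.773 and 0.631 CPM in RS, on 10 to 23 reads. P2ry14, a receptor for UDP-glucose, measured 2.86 and 1.91 CPM in PTS + RS and 1.88 and 1.89 CPM in RS, so that PTS + RS replicate 2 lay barely above RS. All 3 had wide 95% intervals that included 0, and the edgeR adjusted p was 0.300 for P2ry1, 0.395 for P2ry2 and 0.652 for P2ry14. Of the exonic bases of P2ry1, 23.1% overlap the antisense gene Gm37035, which had 0 to 4 reads per library.

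Entpd1, the ectonucleotidase CD39, measured 26.3 and 18.5 CPM in PTS + RS and 12.4 and 12.9 CPM in RS. Both PTS + RS libraries were above RS but differed from each other, with means of 22.4 ± 5.54 and 12.7 ± 0.367 CPM (SD, n = 2 each). The log2 fold change of 0.82 ± 0.187 (SE) had an edgeR adjusted p of 0.0663. Without PTS + RS replicate 2 it was 1.05 with an adjusted p of 6.18e-04, and without PTS + RS replicate 1 it was 0.54 with an adjusted p of 0.0437, over a range of all alternatives from 2.84e-05 to 0.366. Nt5e, the enzyme CD73 one step further along, measured 4.84 and 4.49 CPM in PTS + RS and 5.19 and 3.60 CPM in RS. The PTS + RS libraries lay between the 2 RS libraries, and the log2 fold change of 0.083 had a 95% interval from -0.52 to 0.68 and an edgeR adjusted p of 0.907.

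Adora1 measured 186 and 233 CPM in PTS + RS and 238 and 249 CPM in RS. It was the only member with a fitted value below 0, and the difference of -0.21 ± 0.113 (SE, log2) was not called, at an edgeR adjusted p of 0.384. Mybph on the opposite strand covers 20.1% of the exonic bases of Adora1 and had 1 to 18 reads per library against 1539 to 4304 for Adora1. Markers of neurons, where Adora1 is abundant, had a median log2 fold change of -0.11 in the same fit, and the part of neuronal content in the Adora1 value was not tested.

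**Figure D2:**
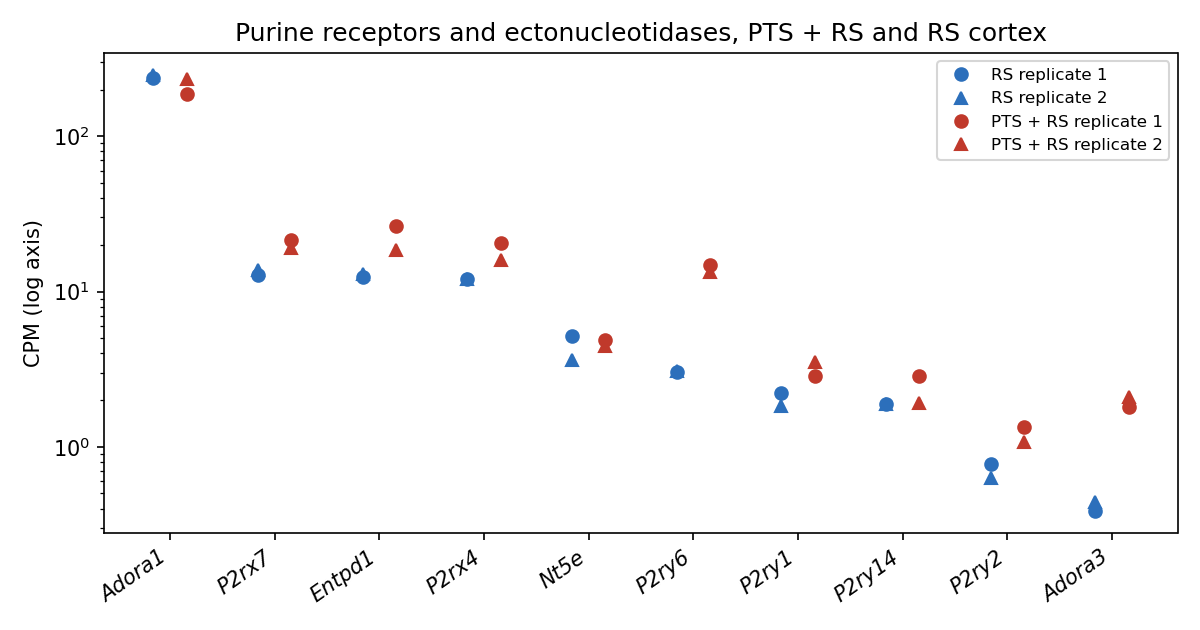
CPM on a log axis for the 10 genes in the 4 cortex libraries, 1 point per library, with RS in blue and PTS + RS in red, circles for replicate 1 and triangles for replicate 2. P2ry6 and Adora3 show the widest gaps between groups, and the Nt5e libraries overlap.

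Per gene length, in FPKM (the deposited values, scaled by gene length and library size), Adora1 led in both groups, at 41.8 ± 1.43 in RS and 36.0 ± 5.81 in PTS + RS (SD, n = 2 each). Below it in RS stood Entpd1 at 2.26 and P2rx7 at 2.21, whose libraries overlapped, then P2rx4 at 1.71 and P2ry6 at 1.06. Nt5e at 0.508 and P2ry1 at 0.468 overlapped, as did P2ry2 at 0.178 and P2ry14 at 0.170, and Adora3 was last at 0.110. In PTS + RS the order differed mainly in P2ry6, whose level of 4.84 FPKM stood in second place. Its libraries overlapped those of Entpd1 at 3.99 FPKM, which in turn overlapped those of P2rx7 at 3.37 FPKM. P2rx4 at 2.58, P2ry1 at 0.740, Nt5e at 0.539, Adora3 at 0.520, P2ry2 at 0.306 and P2ry14 at 0.214 FPKM followed, and of these neighbours only Nt5e and Adora3 overlapped.

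The microglial marker list rose together between the same libraries, with 13 of its 15 genes called higher, a median log2 fold change of 1.97 and a range from 0.84 to 2.94. Markers of blood-derived and border macrophages summed to 35.5 and 17.1 CPM in PTS + RS and 11.8 and 9.84 CPM in RS. Of these 9 markers 5 were tested, all 5 were higher with a median log2 fold change of 1.48, and 1 was called, and for 6 of the 9 both PTS + RS libraries lay above RS. Neutrophil and lymphocyte lists summed to at most 0.828 and 1.62 CPM in these 4 libraries. Expressed as a percentage of the summed microglial markers, a description chosen after the data were seen, P2ry6 was 0.818 and 0.853% in PTS + RS and 0.729 and 0.830% in RS, and Adora3 was 0.0998 and 0.134% against 0.0928 and 0.119%. The groups overlapped on this scale for both genes. The other 8 members stood lower per unit of microglial marker in PTS + RS. P2rx7 was 1.19 and 1.22% there against 3.06 and 3.71% in RS, P2rx4 was 1.14 and 1.01% against 2.89 and 3.25%, and Entpd1 was 1.45 and 1.18% against 2.98 and 3.47%. No test was made on this scale, and the part of microglial content in the member differences was not tested.

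**Figure D3:**
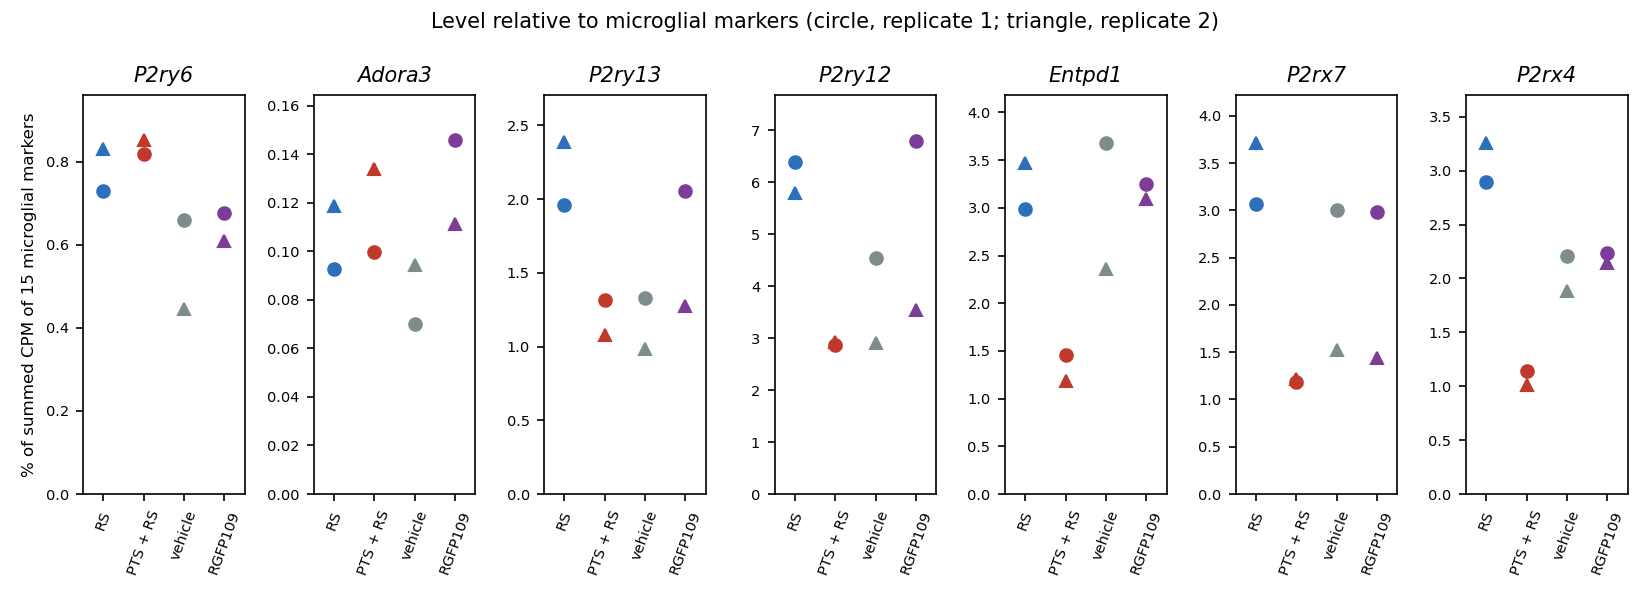
CPM of 7 genes as a percentage of the summed CPM of 15 microglial markers in each library, by group, with circles for replicate 1, triangles for replicate 2 and every axis starting at 0. P2ry6 stands at 0.729 to 0.853% in the RS and PTS + RS libraries, whereas P2rx4, P2rx7, Entpd1, P2ry12 and P2ry13 stand lower in PTS + RS than in RS.

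Of 42 other genes of purine signalling, 34 were tested in this comparison, and 6 rose at an adjusted p below 0.05, beside 2.96% of all tested genes, while 0 fell, beside 0.586% of all. The receptors were P2ry12, the ADP receptor by which resting microglia extend processes to injury, and P2ry13, another ADP receptor. P2ry12 measured 52.0 and 45.7 CPM in PTS + RS and 26.5 and 21.6 CPM in RS, a log2 fold change of 1.02 ± 0.132 (SE) with an edgeR adjusted p of 0.00877. P2ry13 measured 23.9 and 16.9 CPM against 8.17 and 8.90 CPM, a change of 1.26 ± 0.198 with an adjusted p of 0.0195 in edgeR. Without PTS + RS replicate 1 both stood just under the fold limit, at 0.92 and 0.98, and without RS replicate 2 P2ry12 was at 0.87. The call was lost in 4 of 12 alternatives for P2ry12 and in 3 of 12 for P2ry13.

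The enzymes that rose were Xdh, which makes uric acid from purines, and Cd38, which consumes NAD. Xdh, the other gene of the list that passed both limits, stood at 12.1 and 11.8 CPM in PTS + RS and 3.86 and 4.23 CPM in RS, with a log2 fold change of 1.56 ± 0.178 (SE) and an edgeR adjusted p of 0.00502. Its call was lost in 3 of 12 alternatives, both FPKM fits, with a log2 value of 0.67 on the log2(FPKM + 1) scale, and the fit of all 8 libraries, and the adjusted p ranged from 2.54e-10 to 0.779. Cd38 changed by 0.90 with an adjusted p of 0.0448 in edgeR. The transport genes that rose were Slc29a3, a lysosomal nucleoside transporter, by 0.84 on the log2 scale, and Gja1, by 0.58. Without RS replicate 1 the edgeR adjusted p was 0.223 for Cd38 and 0.0730 for Gja1, and without RS replicate 2 it was 0.200 for Gja1 and 0.0609 for Slc29a3. Over all alternatives it reached 0.580 for Cd38, 0.306 for Gja1 and 0.241 for Slc29a3. Gja1 encodes connexin 43, a channel of astrocytes, and is also 1 of the 9 astrocyte markers, whose sum was 7841 and 6639 CPM in PTS + RS and 4502 and 4540 CPM in RS. The whole list had a median of 0.20 and 20 of its 34 tested genes above 0.

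**Figure D4:**
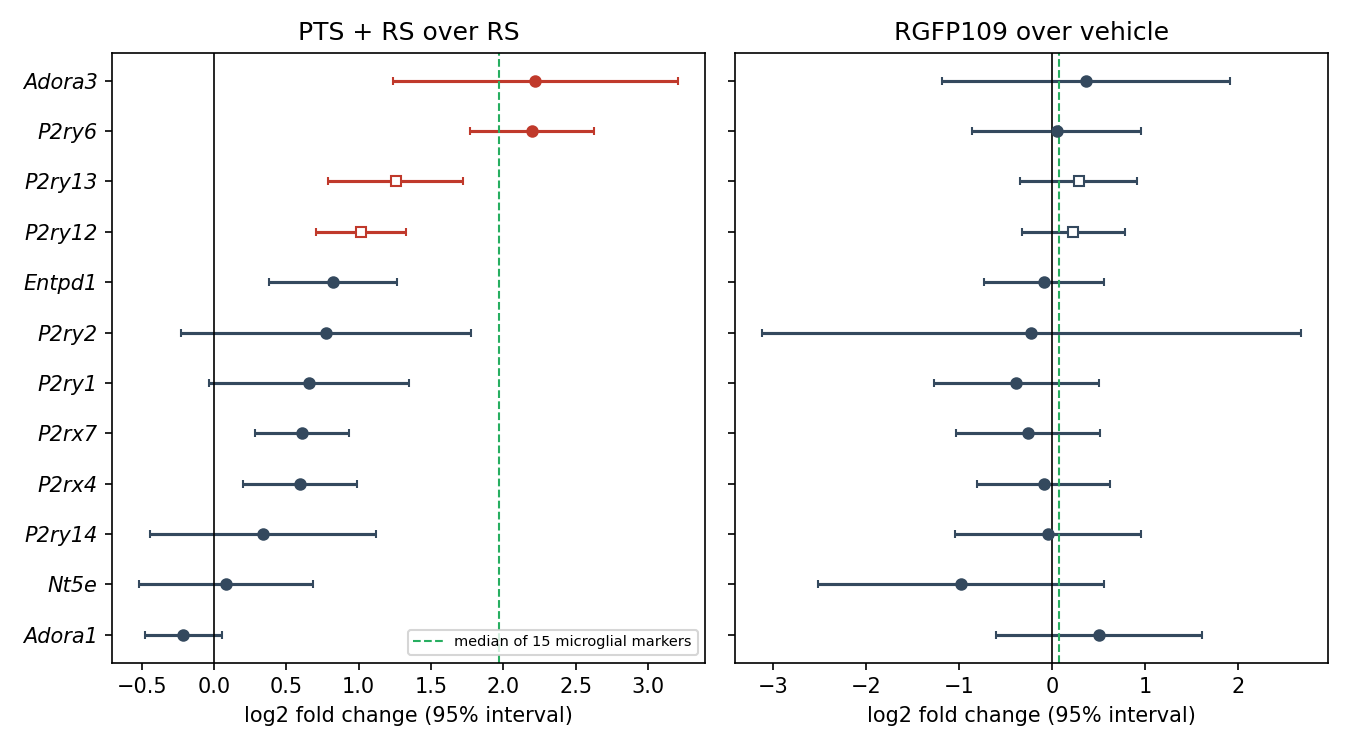
Fitted log2 fold changes with 95% intervals for the 10 genes (filled circles) and P2ry12 and P2ry13 (open squares) in both comparisons, in red where a gene passed both limits. The dashed line is the median of 15 microglial markers, at 1.97 for PTS + RS over RS and 0.070 for RGFP109 over vehicle; every interval in the drug comparison includes 0.

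The stretch around an annotated start is shown for Adora3, a member that rose, and for P2rx7 (both of its starts) and Entpd1 and Adora1 (the first of 2 starts each), members that were not called, so that the letters can be set side by side. RefSeq gave 16 windows of 300 bases, from 250 before to 50 after a start in GRCm38.p6, for 9 of the 10 members, all but P2ry6. Capitals mark matches to PU.1 (GAGGAAGT) or AP-1 (TGANTCA) on either strand. Windows lie at chr3:105904171-105904470 for Adora3 (plus strand), chr5:122643677-122643976 and chr5:122650133-122650432 for P2rx7 (plus strand), chr19:40612116-40612415 for Entpd1 (plus strand) and chr1:134235408-134235707 for Adora1 (minus strand).
Adora3: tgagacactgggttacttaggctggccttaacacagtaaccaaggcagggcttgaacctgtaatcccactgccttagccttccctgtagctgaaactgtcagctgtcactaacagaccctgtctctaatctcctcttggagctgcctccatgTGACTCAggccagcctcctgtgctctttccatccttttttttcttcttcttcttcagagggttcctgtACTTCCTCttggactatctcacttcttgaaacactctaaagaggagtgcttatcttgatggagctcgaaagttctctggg
P2rx7 window 1: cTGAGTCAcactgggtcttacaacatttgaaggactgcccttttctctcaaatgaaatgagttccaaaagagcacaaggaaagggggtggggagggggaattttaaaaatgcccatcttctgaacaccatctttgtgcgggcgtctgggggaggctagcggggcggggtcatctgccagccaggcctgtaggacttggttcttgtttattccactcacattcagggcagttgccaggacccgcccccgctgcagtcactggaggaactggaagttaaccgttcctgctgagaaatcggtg
P2rx7 window 2: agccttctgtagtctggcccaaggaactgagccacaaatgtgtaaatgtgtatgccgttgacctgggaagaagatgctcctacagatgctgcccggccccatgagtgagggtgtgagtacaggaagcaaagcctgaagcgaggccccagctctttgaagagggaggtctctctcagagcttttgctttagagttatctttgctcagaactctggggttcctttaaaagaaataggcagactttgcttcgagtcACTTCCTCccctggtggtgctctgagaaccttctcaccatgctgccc
Entpd1: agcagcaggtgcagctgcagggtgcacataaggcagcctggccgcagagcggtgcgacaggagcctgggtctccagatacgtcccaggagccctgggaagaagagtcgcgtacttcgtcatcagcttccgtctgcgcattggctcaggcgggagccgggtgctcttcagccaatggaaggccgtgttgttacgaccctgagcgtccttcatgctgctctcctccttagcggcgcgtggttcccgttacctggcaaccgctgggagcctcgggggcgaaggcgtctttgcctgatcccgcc
Adora1: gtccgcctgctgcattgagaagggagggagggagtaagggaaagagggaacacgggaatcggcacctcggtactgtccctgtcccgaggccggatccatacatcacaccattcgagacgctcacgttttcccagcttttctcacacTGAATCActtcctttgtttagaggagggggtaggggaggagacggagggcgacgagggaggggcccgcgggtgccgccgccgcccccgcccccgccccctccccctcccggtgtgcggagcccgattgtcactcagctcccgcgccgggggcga

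PU.1 is a transcription factor of microglia and other myeloid cells, and AP-1 is an activity-induced factor. Counting the annotated start as position 0, the Adora3 window matched PU.1 at positions -30 to -23 and AP-1 at positions -98 to -92. The second P2rx7 window matched PU.1 at positions 3 to 10, and its first matched AP-1 at -249 to -243. PU.1 letters were thus found for 2 members and AP-1 letters for 4, namely P2rx7, P2ry14, Adora1 and Adora3. By window, 2 of the 16 member windows held the PU.1 letters and 5 the AP-1 letters. Of all 32851 RefSeq windows, 3.2% held the PU.1 letters and 7.81% the AP-1 letters. The NF-kB letters GGGNNTTCC, in 5.82% of all windows, were found for P2ry14 alone, and neither the STAT letters TTCNNNGAA (8.3% of windows) nor the IRF motif (3.44%) were found for a member. AP-1 letters occurred in both the window of a member that rose, Adora3, and that of Adora1, whose fitted value was below 0.

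The drug comparison asked whether HDAC inhibition moved these genes in PTS + RS mice. No member was called between RGFP109 and vehicle by edgeR, beside 0% of the 17565 tested genes in either direction, and 0 members had an unadjusted p below 0.05, compared with 0.501% of all genes higher and 0.672% lower. DESeq2 and limma-voom called 0 members as well, and over all genes DESeq2 called 1, lower. Fitted values were above 0 for 3 members and below 0 for 7, with a median of -0.088, and 47.4% of all genes were above 0. Both RGFP109 libraries lay below both vehicle libraries for 1 member, P2ry1, an arrangement found in 13.8% of all tested genes, and above for 0 members, beside 12.8% of all. The common biological coefficient of variation was 32.1% here and 11.4% in the stroke comparison, so the intervals were wider. This fit had no term for region, so the spread within a group includes the difference between libraries labelled cortex and amygdala.

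P2ry6 measured 3.23 CPM in RGFP109 cortex and 4.35 CPM in RGFP109 amygdala, against 3.75 and 3.59 CPM in vehicle. The log2 difference was 0.049 with a 95% interval from -0.86 to 0.95. Its FPKM in these 4 libraries, all from PTS + RS mice, was 1.12 to 1.51, whereas the PTS + RS libraries of the stroke comparison held 5.09 and 4.60 FPKM and the RS libraries 1.05 and 1.07 FPKM. The drug comparison's libraries thus stood near the RS level for this gene, and the 2 tables were deposited separately and were not tested against each other. Adora3 measured 0.698 and 0.795 CPM in RGFP109 and 0.398 and 0.761 CPM in vehicle, on 7 to 17 reads, and its fitted log2 difference of 0.36 turned to -0.031 without vehicle replicate 1. That fit set both labelled regions of RGFP109 against vehicle amygdala alone.

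Of the P2X channels with the drug, P2rx4 measured 10.7 CPM with RGFP109 and 12.6 CPM with vehicle in cortex, and 15.3 and 15.2 CPM in amygdala. P2rx7 measured 14.3 and 17.1 CPM in cortex and 10.3 and 12.2 CPM in amygdala, a ratio of 0.835 and 0.842. P2rx7 was lower with RGFP109 in each region and higher in cortex than in amygdala within each group. Its cortex ratio rests on vehicle replicate 1, the library with olfactory bulb markers, and its amygdala ratio was within counting error. The fitted log2 difference of P2rx7 was -0.26 with a 95% interval from -1.03 to 0.51.

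P2ry1 measured 2.98 and 4.72 CPM with RGFP109 and vehicle in cortex and 3.79 and 4.13 CPM in amygdala. It was lower with RGFP109 in both regions, by -0.64 and -0.12 on the log2 scale. The cortex ratio rests on vehicle replicate 1, the library with olfactory bulb markers, and the amygdala ratio was within counting error. P2ry2 had 2 reads with RGFP109 and 10 with vehicle in amygdala, and 18 and 15 in cortex, so its direction differed by region on few reads. P2ry14 had 41 reads in each cortex library and 59 in each amygdala library, a difference within counting error.

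Nt5e and Adora1 had the largest log2 ratios in cortex, beyond counting error. The cortex counting interval also excluded 0 for P2rx7 (-0.52 to -0.0088), P2ry1 (-1.21 to -0.13) and Entpd1 (-0.67 to -0.19). In amygdala the intervals of P2rx7 (-0.53 to 0.024) and P2ry1 (-0.60 to 0.34) included 0, and that of Entpd1 lay above 0 (0.015 to 0.42). Nt5e measured 4.69 CPM with RGFP109 and 23.4 CPM with vehicle in cortex, a log2 ratio of -2.29 with a counting interval from -2.69 to -1.96, and 13.6 and 12.9 CPM in amygdala. Adora1 measured 226 and 87.5 CPM in cortex, a log2 ratio of 1.37 with a counting interval from 1.28 to 1.45, and 186 and 203 CPM in amygdala. In both genes the outlying value was that of the library that stood apart, vehicle replicate 1, whose Nt5e was the highest and whose Adora1 the lowest of all 8 libraries. The fitted log2 difference of Nt5e was -0.98 ± 0.591 (SE), with an adjusted p of 1.000 in edgeR, and was -0.49 without vehicle replicate 1 and -1.94 to -0.41 over all fits with 1 library left out. That of Adora1 was 0.50 ± 0.428, was 0.014 without vehicle replicate 1, and ranged from that value to 1.24 without vehicle replicate 2. Each fit with 1 library left out leaves 1 group with a single labelled region, so region and treatment cannot be told apart in these values. In amygdala alone the log2 ratio of RGFP109 over vehicle was 0.082 for Nt5e and -0.13 for Adora1. The part of olfactory bulb tissue in these values was not tested, and treatment cannot be told apart from library within a region. Counting intervals cover reads only, not the spread between mice.

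**Figure D5:**
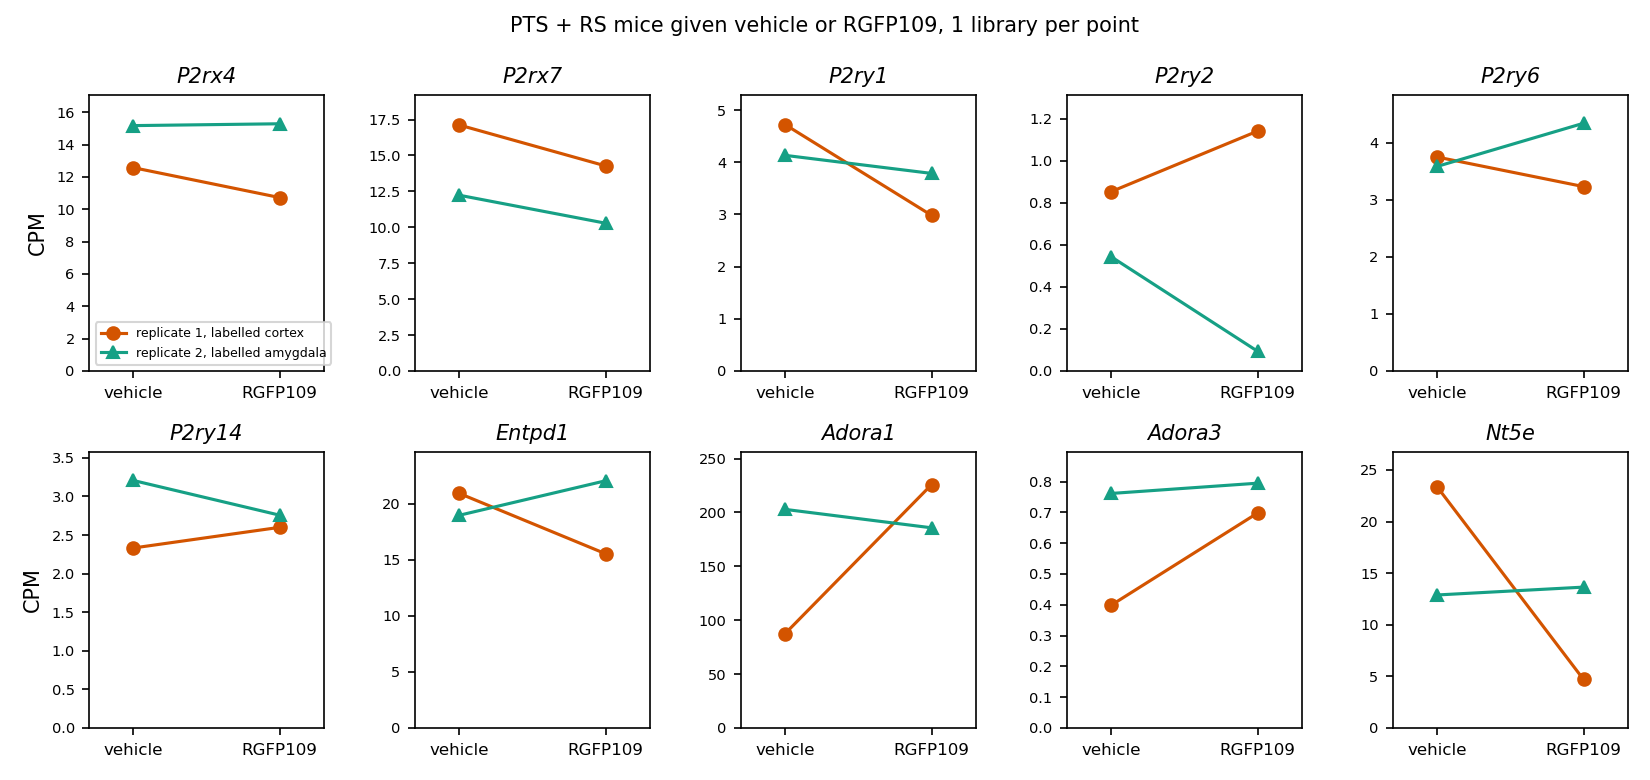
CPM of the 10 genes in PTS + RS mice given vehicle or RGFP109, 1 library per point, with lines joining libraries labelled cortex (orange circles) and amygdala (green triangles) and every axis starting at 0. In cortex Nt5e goes from 23.4 to 4.69 CPM and Adora1 from 87.5 to 226 CPM.

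Entpd1 measured 15.5 and 20.9 CPM with RGFP109 and vehicle in cortex and 22.1 and 19.0 CPM in amygdala. Its direction differed between regions, and the fitted log2 difference was -0.085 with a 95% interval from -0.73 to 0.56. The adenosine receptor gene Adora2a, outside the 10, is itself part of the striatal marker list. With RGFP109 and vehicle it had 964 and 918 reads in the libraries labelled amygdala, those with the high striatal sum. In the libraries labelled cortex it had 34 and 129 reads. Of the 42 other purine genes 33 were tested with the drug, and edgeR called 0, as did DESeq2 and limma-voom. All 8 genes of adenosine and purine breakdown had fitted values below 0, from -1.26 to -0.11, and 0 of them passed. For all of them but Pnp the log2 ratio was lower in the cortex pair, which includes vehicle replicate 1, than in amygdala. Ampd2 and Adk, named like Pnp after their values were seen, had log2 ratios of -1.81 and -1.16 in cortex and -0.030 and 0.19 in amygdala, and Pnp was at 0.11 and -0.54. Xdh turned direction with 1 library left out, from -1.80 to 1.00, in fits where 1 group held a single labelled region. Microglial markers had a median log2 difference of 0.070 and a range from -2.05 to 0.39, with 9 of 15 above 0 and 0 of 15 called. Their summed level was lower with RGFP109 in each labelled region, at 479 against 569 CPM in cortex and 713 against 805 CPM in amygdala. Single markers differed from the sum. In cortex Csf1r (112 against 81.5 CPM), Cx3cr1 (42.7 against 35.7) and Tmem119 (20.4 against 18.2) were higher with RGFP109. In amygdala Cx3cr1 (44.5 against 34.96) was higher, and Csf1r (132 against 135) and Tmem119 (27.9 against 29.4) were lower. Sall1, the marker at -2.05, measured 23.7 and 208 CPM in the vehicle libraries. The cortex difference rests on vehicle replicate 1, the library with olfactory bulb markers.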

How the data were processed

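RNA was measured in 8 mouse brain libraries. STAR 2.4.0 aligned the paired-end reads to GRCm38 and HTSeq 0.6.1 counted them, and the authors deposited raw counts per gene and FPKM, scaled by gene length and library size, in separate tables for the 2 comparisons. The strand setting is not given in the sources used here, and the kit named by the labels, which keeps strand, differs from that in the study's methods. Deposited columns of fold changes and p-values from the authors' own comparisons and 8 per-library columns that matched no sample were not used.

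Counts were normalized by TMM, filtered with filterByExpr and tested over all genes of a table by edgeR 4.0.16 (quasi-likelihood, Benjamini-Hochberg) in R 4.3.3. Alternatives used DESeq2 1.42.0, limma 3.58.1 (voom, or trend on log2 FPKM plus 1 or 0.1), no filter, a replicate block, single libraries left out, and all 8 libraries. CPM uses TMM-scaled totals. Ratios within a region add a prior count of 2, and their 95% intervals are exact binomial intervals, for counting error only. The code was tested on simulated data. Depth was 15902013 to 21712033 counts per library.

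Named are the 10 members, P2ry12, P2ry13 and Adora2a, purine pathway genes at an adjusted p below 0.05, and overlapping genes. Members and lists were chosen with earlier results of these data known. The olfactory bulb list was added after the libraries were seen. Same-numbered RGFP109 and vehicle libraries share a labelled region, which pairs them, and their deviations correlated at 0.299. In both comparisons the fit without the block is reported.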

Additional observations from a re-analysis of the deposited data

Results flagged for a closer look

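Adora1 and Entpd1 had ratios of RGFP109 over vehicle that pointed in opposite directions in the regions labelled cortex and amygdala. Each counting interval excluded 0, that of Entpd1 in amygdala narrowly, at 0.015 to 0.42. For Adora1 the log2 ratio was 1.37 in cortex and -0.13 in amygdala, and for Entpd1 it was -0.43 in cortex and 0.22 in amygdala. The difference between regions was not tested, because each region had 1 library per group, and the cortex ratio of both genes rests on vehicle replicate 1, the library with a summed olfactory bulb marker level of 1293 CPM.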

How the results depend on the processing

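In the stroke comparison 373 genes were called higher and 16 lower. The counts were 604 and 155 with no filter, 184 higher with FPKM plus 1, 25 lower with FPKM plus 0.1, 31 lower in DESeq2 and 0 in a fit of all 8 libraries. With 1 library left out, 308 to 626 genes were called higher and 15 to 192 lower. Members called higher were 1 in DESeq2, limma-voom and both FPKM fits, 0 in the fit of 8 libraries and 1 to 3 with 1 library left out. With the replicate block, 2 members, 443 higher and 32 lower genes were called. PTS + RS and RS libraries share only a number, and their same-numbered deviations correlated at 0.0352. With the drug, DESeq2 called 1 gene lower, and leaving out 1 library gave 0 to 15 higher and 0 to 78 lower, the upper counts without vehicle replicate 2. The replicate block left 0 genes called there, and in neither comparison did it change the call of a gene named here at both limits.

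Directions turned only when 1 library was left out. Log2 ranges were -0.16 to 0.37 for Nt5e after stroke and, with the drug, -0.37 to 0.14 for P2rx4, -0.36 to 0.15 for Entpd1, -2.81 to 0.71 for P2ry2, -0.18 to 0.25 for P2ry6, -0.26 to 0.21 for P2ry14, -0.031 to 0.91 for Adora3, -3.73 to 1.71 for Adora2a, -1.80 to 1.00 for Xdh, -0.75 to 0.21 for Cd38, -0.22 to 0.22 for Slc29a3 and -0.035 to 0.29 for Gja1. With the drug, a group that lost 1 library held a single labelled region against 2 in the other group. Region and treatment cannot be told apart in those fits, and the cause of these shifts was not tested. Of the member values under alternatives, 110 after stroke and 112 with the drug kept direction and side of the threshold, and 1 and 8 turned. After stroke 8 others lost their call and 1 gained one. With 2 libraries per group, left-out fits assume that a lone library varies like the other group. Few reads limit the precision of Adora3 and P2ry2.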
